A study of Mus musculus with 6 samples.

Results

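Accessible chromatin was followed at the genes of 8 transcription factors in mouse AE9a leukemia: Gata1, Gata2, Zfpm1 (FOG1), Tal1 (SCL), Lmo2, Lyl1, Fli1 and Erg. A peak was assigned to one of them when the deposited table named that gene as its nearest and put the peak at most 100000 bp from its transcription start site (TSS). This rule took 352 of 175929 ATAC-seq peaks: 16 for Gata1, 38 for Gata2, 124 for Zfpm1, 16 for Tal1, 24 for Lmo2, 32 for Lyl1, 54 for Fli1 and 48 for Erg. A further 12 peaks of Zfpm1 lay beyond the limit and were not used. All 6 libraries came from Usp18+/f cells with a tamoxifen-inducible Cre recombinase and AE9a, a truncated AML1/ETO fusion, that had been transplanted into recipient mice. Once the mice were sick they received either oil (replicates 1, 2 and 4, Usp18+/f) or tamoxifen, which activates the Cre (replicates 1, 3 and 4, Usp18+/Δ), and splenic GFP+ Lin- c-Kit+ cells were taken by sorting 3 days after injections began. Usp18 encodes a protease that removes ISG15 from proteins and dampens interferon signaling. No library had tamoxifen without a floxed Usp18 allele, so loss of 1 allele cannot be told apart here from tamoxifen or Cre activity.

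GATA factors bind the sequence core GATA and recruit FOG1, encoded by Zfpm1, as a cofactor. GATA2 maintains hematopoietic stem and progenitor cells and gives way to GATA1 as erythroid cells and megakaryocytes mature. TAL1 and its relative LYL1 are helix-loop-helix proteins that bind E-boxes and are bridged to GATA factors by LMO2, while FLI1 and ERG are ETS factors. Together with RUNX1 these proteins form a heptad that occupies shared enhancers in blood stem cells and in leukemia, and AML1/ETO acts in the company of several of them.

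Sites where an E-box core stands 8 or 9 bases from a GATA motif are where TAL1, LMO2 and GATA complexes bind, so the members' peaks were read for this composite. It was written as CTG, then any 8 or 9 bases, then GATA with A or T before it and A or G after it, on either strand of the central 200 bp of a peak. The 5 stretches shown are those at the known Gata2 intronic (+9.5 kb) and Gata1 upstream (-3.5 kb) enhancers and at the 3 composite-bearing member peaks with an unadjusted p under 0.05. Each is the GRCm38 (mm10) reference, 5′ to 3′ on the strand that holds the motif, with the CTG and the 6 letters of the GATA motif in capitals.
Gata2 -3.1 kb, chr6:88190750-88190846, + strand: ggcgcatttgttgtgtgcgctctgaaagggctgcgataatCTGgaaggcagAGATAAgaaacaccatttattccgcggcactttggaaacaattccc
Gata2 -2.0 kb, chr6:88191818-88191914, + strand: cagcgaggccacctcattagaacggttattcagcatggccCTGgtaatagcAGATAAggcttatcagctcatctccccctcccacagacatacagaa
Gata2 +9.4 kb, chr6:88203148-88203244, + strand: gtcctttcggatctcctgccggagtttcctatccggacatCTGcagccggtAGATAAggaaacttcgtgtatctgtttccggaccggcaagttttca
Gata1 -3.6 kb, chrX:7971450-7971547, + strand: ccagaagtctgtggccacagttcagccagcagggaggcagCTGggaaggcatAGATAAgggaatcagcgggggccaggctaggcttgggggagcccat
Fli1 +21.7 kb, chr9:32519720-32519816, - strand: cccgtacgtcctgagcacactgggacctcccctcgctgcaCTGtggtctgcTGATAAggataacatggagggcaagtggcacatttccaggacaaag
Those of Gata1 and of Gata2 upstream of its starts lie in intergenic sequence, the third in intron 4 of 5 of Gata2 (NM_001355253) and the fifth in intron 1 of 8 of Fli1. Distances of Gata2 peaks are given from the upstream of its 2 RefSeq starts, and a match to the motif is a description of the letters only.

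Tags were the unit of measurement, raw and in steps of 0.5 per peak, and were normalized with the DESeq2 size factors of the whole table. Total tags were 57.4 to 74.7 M per library (1 M is 1000000), of which 17.5 to 21.1 M fell in peaks, and the median member peak held 59.7 normalized tags. The methods give 3 mice per group for the sorted cells and state that 1 set of them served the paired ATAC-seq. They also state that ATAC-seq was run in biological duplicates, and no label ties a library to a mouse. The p-values measure the spread between libraries, which may be partly technical. Tamoxifen replicate 4 stood nearer to the oil libraries than its group. Its tags lay inside the range of the 3 oil libraries at 173 of the 352 member peaks, against 135 for tamoxifen replicate 1 and 111 for tamoxifen replicate 3. Its median absolute log2 deviation from the oil mean over these peaks was 0.13, against 0.20 and 0.22 for replicates 1 and 3, and 0.12 to 0.13 for an oil library against the mean of the other two. The same order held over all peaks of the table. There 42.9%, 35.1% and 31.0% of peaks lay in the oil range for tamoxifen replicates 4, 1 and 3, beside 49.1%, 38.4% and 31.5% of members. The all-peak deviations were 0.18, 0.23 and 0.26. Results are therefore also given without tamoxifen replicate 4. That library was singled out by its closeness to oil, so leaving it out tends to widen the differences between the groups. Adjusted p-values without it describe the remaining libraries and are no separate evidence. Tags summed over the 15 peaks of Usp18 itself were 1762 to 1790 in the oil libraries and 1707 to 1791 in the tamoxifen libraries, which overlap, and open chromatin over the gene does not measure how many of its alleles were recombined. Kit, the receptor the cells were sorted for, had 3776 to 4010 summed tags after oil and 3818 to 4056 after tamoxifen.

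No member peak passed the test. By DESeq2 0 of the 352 differed more than 2-fold with an adjusted p under 0.05, where 0.654% of all peaks did. With no limit on fold change 0 were higher and 0 lower at an adjusted p under 0.05, against 1.22% and 0.167% of all peaks, and the smallest adjusted p was 0.0935. At an unadjusted p under 0.05, 9 member peaks (2.56%) were higher and 10 (2.84%) lower after tamoxifen, while 6.18% of all peaks were higher and 2.84% lower. The robust edgeR quasi-likelihood test gave 2 higher and 2 lower member peaks at an adjusted p under 0.05, where 2.40% and 0.521% of all peaks passed, and 2 of the 4 exceeded a 2-fold change, against 1.03% of all peaks. Without tamoxifen replicate 4, DESeq2 gave 4 higher and 7 lower member peaks (1.14% and 1.99%), beside 2.29% and 1.43% of all peaks, and 3 exceeded a 2-fold change, beside 1.54%. The 4 were the peaks of Zfpm1 at -84.6, -48.4 and -4.8 kb and of Lmo2 at -12.9 kb, and the 7 were 2 each of Gata2, Lmo2 and Fli1 and 1 of Zfpm1.

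The members' fold changes centered on 0. Their median log2 fold change, tamoxifen over oil, was -0.01 with quartiles of -0.15 and 0.12, and that of all peaks was -0.00 with quartiles of -0.18 and 0.19. The extremes were -1.21 and 1.06, both at peaks with few tags. The 3 tamoxifen libraries all lay above the 3 oil libraries at 24 member peaks (6.82%) and all below at 27 (7.67%), where 11.8% and 9.99% of all peaks were so separated. The authors' peak lists held 256 of the 352 (72.7%) in both groups, 52 (14.8%) in oil only and 44 (12.5%) in tamoxifen only, and of all peaks 71.4% were in both, 17.4% in oil only and 11.2% in tamoxifen only. In the plot of fold changes by gene, the peaks with an unadjusted p under 0.05 are spread over 6 of the 8 genes, and Gata1 and Tal1 have none.

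**Figure D1:**
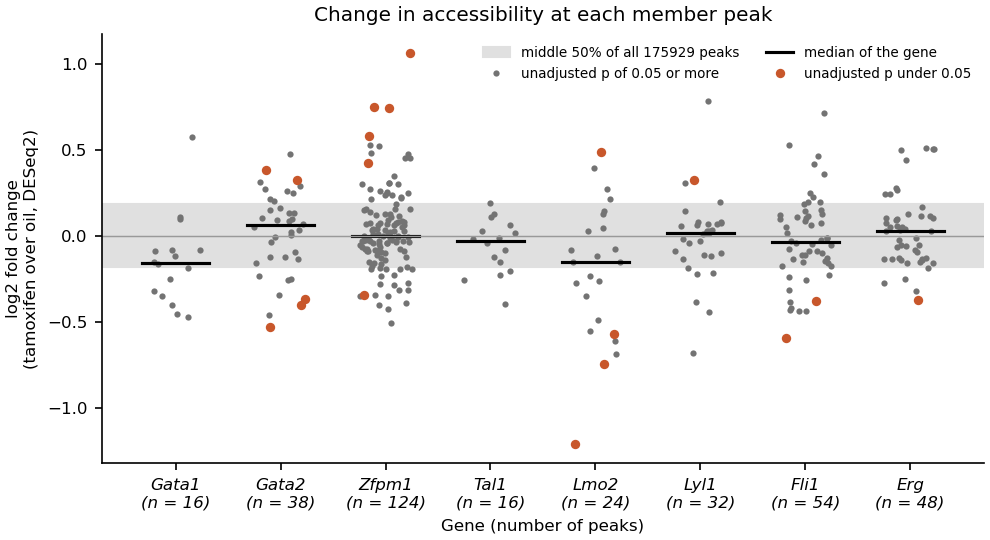
Log2 fold change (tamoxifen over oil, DESeq2 on all peaks) of each of the 352 peaks, by gene on the x axis. Gray points have an unadjusted p of 0.05 or more and orange points a smaller one, black bars are the median of each gene (-0.16 for Gata1, -0.15 for Lmo2, 0.06 for Gata2), and the band is the middle 50% of all 175929 peaks.

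Summed over its peaks, none of the 8 genes passed the test either, where 4.98% of 19781 genes with peaks were higher and 1.02% lower at an adjusted p under 0.05 (DESeq2). At an unadjusted p under 0.05 there were also 0 of the 8, beside 3518 of the 19781 genes (DESeq2). The edgeR test gave 0 of the 8 at an adjusted p under 0.05, and its share over all genes was not worked out. Per kb of peak, Lyl1 was the most open with 740 ± 19.04 normalized tags (SD over 6 libraries), followed by Tal1 with 488 ± 25.3 and Gata1 with 434 ± 42.1. Of the 32 Lyl1 peaks, 24 lay beyond 3000 bp of its start. Those at 23.4, 29.4 and 32.4 kb are in introns of another transcript (NM_001081982), so the ranking is of assigned peaks. Gata2 (372 ± 17.2), Zfpm1 (362 ± 5.47) and Erg (358 ± 6.95) stood within each other's spread, and Fli1 (319 ± 13.0) and Lmo2 (280 ± 17.6) were lowest. The narrowest 95% intervals of the log2 fold change were those of Zfpm1 (-0.10 to 0.07) and of Lyl1 (-0.09 to 0.10), and the interval of Erg ran from -0.10 to 0.10. For each of the 8 genes the 2 groups of libraries overlapped, and the share of all genes with such overlap was not worked out. In the plot of summed tags, tamoxifen replicates 1 and 3 lie under all oil libraries for Gata1, Tal1 and Fli1 while tamoxifen replicate 4 lies within their range for Gata1 and Fli1 and above it for Tal1.

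**Figure D2:**
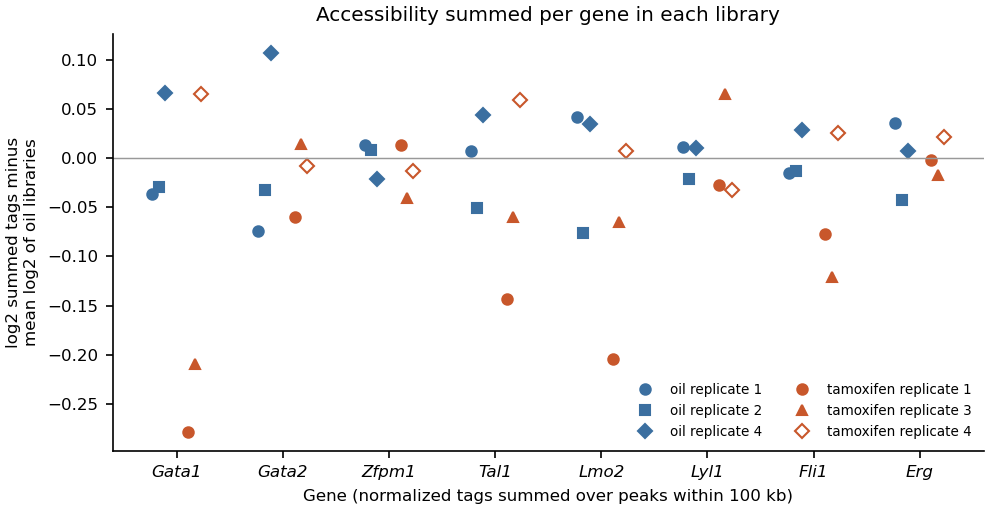
Normalized tags summed over the peaks of each gene, as the log2 difference from the mean of the 3 oil libraries (y axis), for the 8 genes (x axis). Blue symbols are oil and orange symbols tamoxifen libraries, with tamoxifen replicate 4 open; the largest spread is at Gata1, with 1584 and 1661 tags in tamoxifen replicates 1 and 3 and 2010 in replicate 4.

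Gata1, the driver of erythroid and megakaryocytic maturation, had the log2 fold change of summed tags farthest from 0 among the members. Its 16 peaks summed to 1873, 1882 and 2012 tags in oil replicates 1, 2 and 4 and to 1584, 1661 and 2010 in tamoxifen replicates 1, 3 and 4. Tamoxifen replicates 1 and 3 were thus below every oil library and replicate 4 at the top of the oil range. The log2 fold change was -0.13 ± 0.08 (SE) with a DESeq2 adjusted p of 0.398. Without tamoxifen replicate 4 it was -0.24 with an adjusted p of 0.00195, in a fit in which 14.9% of genes passed. Of the 16 peaks 13 had a fold change below 0 and none an unadjusted p under 0.05. The promoter peak (-56 bp, chrX:7967863-7968070) held 435, 427 and 443 tags after oil and 369, 386 and 449 after tamoxifen, the same arrangement of libraries. The peak at the -3.5 kb enhancer (chrX:7971426-7971632), printed above with its composite, differed from this arrangement. It held 167, 167 and 164 tags after oil and 167, 175 and 194 after tamoxifen, so that the tamoxifen values stood above the oil values, the closest by less than a tag. The log2 fold change was 0.11 ± 0.15 (SE) with an adjusted p of 0.951 (DESeq2).

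Gata2, the stem and progenitor GATA factor, had overlapping sums of 4917, 5060 and 5575 tags after oil and 4965, 5230 and 5146 after tamoxifen (log2 fold change -0.02 ± 0.06, DESeq2 adjusted p 0.92). Its peaks had fold changes of both signs along the gene. The most open distal peak, at the known GATA site 3.9 kb upstream (-4103 bp, chr6:88189688-88189888), held 563, 539 and 495 tags after oil and 580, 552 and 521 after tamoxifen, so the groups overlapped. The next peak, at -3.1 kb (chr6:88190599-88190955), held 333, 321 and 344 tags after oil and 247, 221 and 304 after tamoxifen, all 3 below all oil values. Its log2 fold change of -0.37 ± 0.13 (SE) had an adjusted p of 0.169 by DESeq2, 0.0477 by edgeR and 0.00608 by DESeq2 without tamoxifen replicate 4. This peak carries the first composite shown above.

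The 5 peaks from -3.1 to -1.2 kb, the stretch that holds the known GATA sites at -2.8 and -1.8 kb, all had fewer tags on average after tamoxifen. This stretch was picked out after its values were seen and was not tested as a group. At -2.0 kb (chr6:88191755-88192116), where the second composite lies, tags were 172, 181 and 210 after oil and 141, 120 and 164 after tamoxifen. At -2.3 kb (chr6:88191409-88191734) they were 82.7, 87.8 and 98.6 against 52.2, 56.8 and 77.3. These groups did not overlap, and the log2 fold changes of -0.40 and -0.53 had adjusted p-values of 0.305 and 0.382 (DESeq2). Summed over the 5 peaks, tags were 946, 996 and 1038 after oil and 762, 670 and 895 after tamoxifen, with tamoxifen replicate 4 again nearest to the oil group. Past the downstream start, which lies 4773 bp further on, 11 of the 12 peaks between 5.7 and 13.6 kb had a log2 fold change above 0, up to 0.47, and 2 had an unadjusted p under 0.05. The peak at the +9.5 kb intronic enhancer (chr6:88203151-88203356), which GATA2 and TAL1 are known to occupy through the third composite shown, overlapped between the groups. It held 308, 287 and 285 tags after oil and 304, 336 and 296 after tamoxifen, a log2 fold change of 0.09 ± 0.12 (SE) with an adjusted p of 0.946. The peak over the downstream start (chr6:88198539-88198741) held 315, 337 and 324 against 350, 372 and 317, also overlapping.

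**Figure D3:**
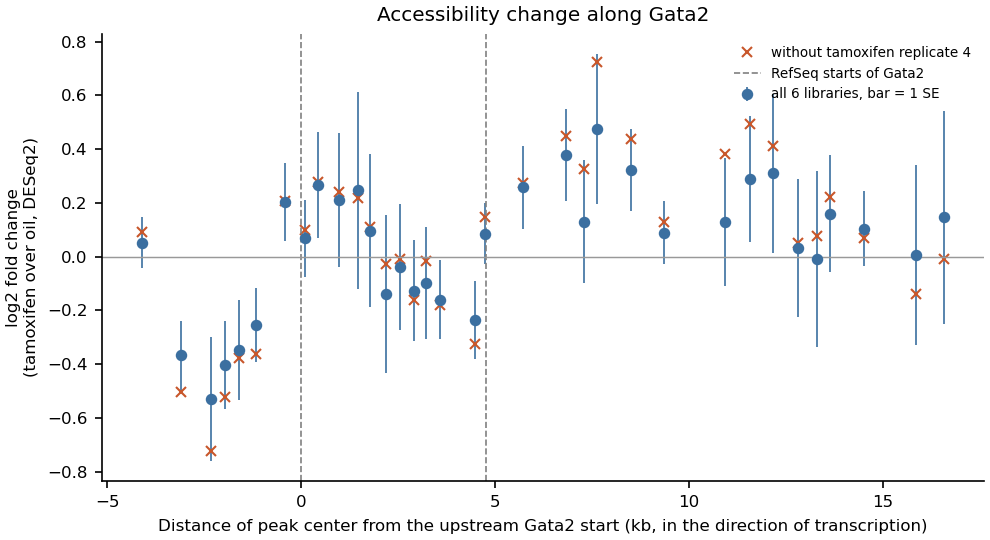
Log2 fold change of Gata2 peaks (y axis, tamoxifen over oil, DESeq2) against the distance of the peak center from the upstream start in kb (x axis), with dashed lines at the 2 RefSeq starts. Blue points with 1 SE use all 6 libraries and orange crosses leave out tamoxifen replicate 4; the 5 peaks from -3.1 to -1.2 kb are below 0 (-0.53 to -0.25) and 11 of 12 between 5.7 and 13.6 kb above it.

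The Gata2 enhancer 77 kb upstream was open too, but the table assigned its peaks to the closer gene Mir6376, so that they are no members. The peak at -77.3 kb (chr6:88116382-88116858) held 340, 387 and 373 tags after oil and 528, 539 and 393 after tamoxifen. The groups did not overlap, and the log2 fold change was 0.41 ± 0.12 (SE) with a DESeq2 adjusted p of 0.0598. A member peak at -38 kb (-38013 bp, chr6:88155696-88156060) showed the clearest split within the tamoxifen group, with 81.6, 76.1 and 81.5 tags after oil and 34.8, 37.9 and 101 after tamoxifen. Its adjusted p was 0.918 with all libraries and 0.00392 without tamoxifen replicate 4 (DESeq2). The peak was picked for this split, so the second p-value carries no weight of its own.

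Zfpm1, whose product FOG1 binds GATA1 and GATA2, had the most peaks, and the sums of the groups overlapped. Summed tags were 13755, 13703 and 13432 after oil and 13750, 13250 and 13504 after tamoxifen (log2 fold change -0.01 ± 0.04). Its promoter peak (-215 bp, chr8:122281818-122282035) was the most open of all member peaks per kb, with 889, 833 and 797 tags after oil and 857, 940 and 816 after tamoxifen. Peaks with fewer tags around it had larger fold changes. At -4.8 kb (chr8:122277209-122277486, intergenic) tags were 54.1, 45.8 and 62.7 after oil and 83.1, 110 and 80.1 after tamoxifen. The groups did not overlap, and the log2 fold change of 0.74 ± 0.24 (SE) gave the smallest adjusted p of the members, 0.0935 by DESeq2 and 0.0318 by edgeR. At -48.4 kb (-48428 bp, chr8:122233569-122233858), a peak listed by the authors for tamoxifen only, tags were 22.1, 19.5 and 19.7 against 52.2, 46.8 and 28.9 (log2 fold change 1.06 ± 0.36, adjusted p 0.134 by DESeq2 and 0.0262 by edgeR). In the first intron, 9.0 kb downstream (8996 bp, chr8:122290942-122291333), tags ran the other way, with 368, 382 and 335 after oil and 284, 241 and 328 after tamoxifen (log2 fold change -0.34, DESeq2 adjusted p 0.205).

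Lmo2, the adaptor between TAL1 and GATA proteins, has RefSeq starts at chr2:103957995 (the distal start), chr2:103969557 and chr2:103970287. At the peak nearest a start, over that at chr2:103969557 (12 bp, chr2:103969435-103969704), tags were 426, 379 and 353 after oil and 398, 389 and 389 after tamoxifen. Upstream of the distal start, at -0.9 kb (chr2:103956941-103957255), tags were 163, 136 and 136 after oil and 80.2, 76.9 and 134 after tamoxifen. The tamoxifen libraries were all below the oil libraries there, replicate 4 only just. The log2 fold change was -0.57 ± 0.21 (SE) with a DESeq2 adjusted p of 0.202, and -0.88 with an adjusted p of 0.00171 without replicate 4. The peak nearest the distal start, at -157 bp (chr2:103957730-103957946), held 104, 78.0 and 98.6 tags against 44.5, 40.1 and 106, so the groups overlapped. Tamoxifen replicates 1 and 3 were below every oil library there and replicate 4 above, and the log2 fold change of -0.55 had an adjusted p of 0.856 with all libraries and 0.00185 without replicate 4 (DESeq2). Farther upstream, at -12.9 kb (-12868 bp, chr2:103944986-103945269), tags were 124, 97.5 and 115 after oil and 149, 212 and 112 after tamoxifen, with an adjusted p of 0.362 (DESeq2). The weak peak at 14.3 kb (14279 bp, chr2:103984461-103984671), with 24.3, 18.5 and 28.7 against 6.77, 11.1 and 13.0 tags, had the largest drop of the members and an adjusted p of 0.282 by DESeq2 and 0.0423 by edgeR. Of the 24 Lmo2 peaks, 10 were in the authors' oil list only and 4 in the tamoxifen list only, and their median log2 fold change was -0.15. Counted from the distal start, the known element at -25 kb held 26.5, 29.3 and 32.3 tags against 27.1, 29.0 and 41.0. Counted from either other start, it falls on the -12.9 kb peak given above. No peak lay within 1 kb of the -70 kb element from any start, or of the -75 kb element from the distal start. From chr2:103969557 the strongest peak at -75 kb, assigned to Lincred1, held 229, 254 and 287 tags after oil and 221, 207 and 324 after tamoxifen. The difference between the peaks near the distal start and the peak over chr2:103969557 was not tested.

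Neither helix-loop-helix gene passed the test. Tal1 summed to 2462, 2365 and 2525 tags after oil and 2217, 2351 and 2551 after tamoxifen (log2 fold change -0.05 ± 0.06, DESeq2 adjusted p 0.803), and 15 of its 16 peaks were in both peak lists. The peak nearest its downstream start (-66 bp, chr4:115057640-115057850) held 64.0, 68.3 and 59.1 against 46.4, 57.9 and 70.8 tags, and that at the -4 kb enhancer (-3712 bp, chr4:115052577-115052852) 66.2, 58.5 and 80.6 against 65.7, 69.1 and 65.2. Peaks at the Tal1 stem cell enhancer (+19 kb) and erythroid enhancer (+40 kb) were assigned to Pdzk1ip1 and are no members. The strongest of them, at 39.7 kb, held 349, 368 and 387 tags after oil and 383, 479 and 409 after tamoxifen (log2 fold change 0.20, DESeq2 adjusted p 0.64). Lyl1, the paralog that can stand in for Tal1 in stem cells, summed to 6570, 6422 and 6563 tags after oil and 6394, 6820 and 6375 after tamoxifen, a log2 fold change of 0.00 ± 0.05 (SE). Its promoter peak (-25 bp, chr8:84701319-84701545) held 575, 563 and 564 against 565, 595 and 561. Only the peak at -3.6 kb (chr8:84697769-84698020), in an intron of another gene, had an unadjusted p under 0.05 among the 32, with 243, 234 and 220 tags after oil and 283, 322 and 266 after tamoxifen (adjusted p 0.288, DESeq2).

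The ETS genes did not pass the test either. Fli1 summed to 4669, 4677 and 4815 tags after oil and 4475, 4339 and 4806 after tamoxifen (log2 fold change -0.06 ± 0.05, DESeq2 adjusted p 0.671). Its promoter peak (-51 bp, chr9:32541255-32541751) held 430, 462 and 423 against 447, 453 and 486 tags, and its most open distal peak (-48631 bp, chr9:32589983-32590184) 179, 197 and 176 against 188, 183 and 177. The intronic peak at 21.7 kb (chr9:32519676-32519896), which carries the fifth composite shown, held 87.1, 68.3 and 85.1 tags after oil and 52.2, 46.8 and 59.6 after tamoxifen. Here tamoxifen replicate 4 sat with its group, the groups did not overlap, and the log2 fold change of -0.60 ± 0.24 (SE) had an adjusted p of 0.296 (DESeq2). Erg summed to 4869, 4610 and 4773 against 4743, 4693 and 4822 tags. Its most open distal peak, in an intron 19.4 kb past a start (19425 bp, chr16:95439820-95440027), held 622, 571 and 541 tags after oil and 554, 530 and 553 after tamoxifen, while the peak nearest a start (-120 bp, chr16:95459271-95459665) held 48.8 to 52.9 and 37.9 to 55.9. At 9.9 kb (9885 bp, chr16:95449356-95449571) tags were 181, 166 and 181 against 118, 129 and 160, without overlap (log2 fold change -0.37, DESeq2 adjusted p 0.403). At the known Fli1 -15 kb enhancer (-14994 bp) tags were 260, 246 and 235 against 229, 187 and 272, which overlap. The weaker peak beside it (-14007 bp), which carries a composite, held 31.99, 41.9 and 38.5 against 25.1, 26.7 and 31.7, all below oil (log2 fold change -0.43, DESeq2 adjusted p 0.824). No peak lay within 1 kb of the known Erg +85 kb or Fli1 +12 kb enhancers.

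**Figure D4:**
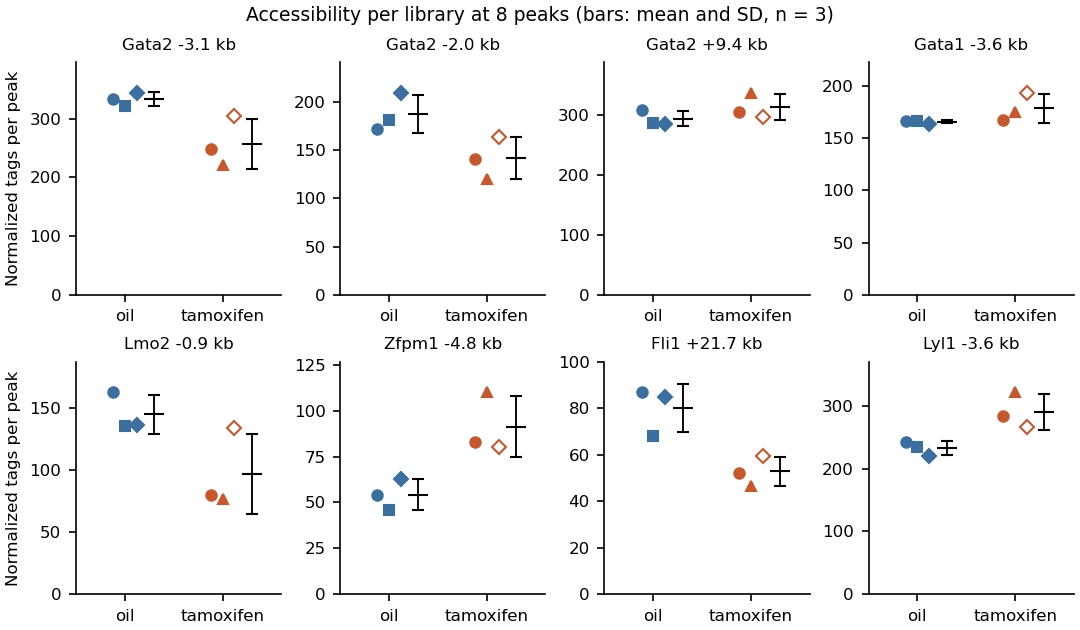
Normalized tags (y axis, from 0) in each library at 8 member peaks, named by gene and distance from its upstream start. Blue symbols are oil and orange symbols tamoxifen libraries, circles are replicate 1, squares replicate 2, triangles replicate 3 and diamonds replicate 4, tamoxifen replicate 4 is open, and bars give the mean and SD (n = 3). The groups overlap at Gata2 +9.4 kb and are apart at the other 7 peaks, least so at Gata1 -3.6 kb (167 against 167) and Lmo2 -0.9 kb (134 against 136). Several of the 8 were picked as the peak of their gene with the smallest unadjusted p (DESeq2), so they do not stand for the members. Over all members tamoxifen lay wholly above oil at 6.82% and wholly below at 7.67%, beside 11.8% and 9.99% of all peaks.

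Members that were most open differed least. The 36 peaks with the most tags per kb (977 to 3924) had log2 fold changes of -0.23 to 0.32, 1 of them with an unadjusted p under 0.05, and the other 316 ranged from -1.21 to 1.06. The former held a median of 392 normalized tags and the latter 52.5, with median standard errors of 0.11 and 0.27, so the wider range went with larger standard errors. By motif, the members were close to all peaks of the table. A GATA motif (the same letters, either strand, central 200 bp) was present in 125 of 352 members (35.5%) and in 34.4% of 175738 peaks with a reference sequence. An E-box (CAGATG or CAGCTG) was present in 33.0% against 27.9%, an ETS motif (GGAAGT or GGAAAT) in 22.7% against 27.1% and a RUNX motif (TGTGGT) in 17.05% against 18.7%. The composite, which contains a GATA motif by construction, was present in 18 members (5.11%) and in 3.29% of all peaks. At an unadjusted p under 0.05, 0 of the 125 GATA-bearing members were higher and 7 lower, and among the 227 without the motif 9 were higher and 3 lower. Over all peaks with the motif 7.53% were higher and 4.03% lower, and over all peaks without it 5.49% and 2.21%. This split of the members was seen in the data and not tested.

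Other genes of the same network were read from a list of 21 partners of these factors, among them Ldb1, Tcf3, Cbfa2t3 (ETO2), Kdm1a and Runx1. Their summed tags gave 1 gene higher at an adjusted p under 0.05 in DESeq2, Zfpm2 (log2 fold change 0.40 ± 0.12), and 0 lower, against 0 and 0 for the 8 members. Without tamoxifen replicate 4 the partners gave 2 higher (Zfpm2 and Runx1) and 4 lower (Ssbp4, Cbfa2t3, Chd4 and Gata3), and the members 0 higher and 1 lower (Gata1). Ldb1, which holds the complex together by dimerizing, had 3526, 3650 and 3557 tags after oil and 3334, 3237 and 3338 after tamoxifen, without overlap (log2 fold change -0.12 ± 0.05, adjusted p 0.187). Runx1, the remaining heptad gene and with 255 peaks larger than any member, had 20918, 20730 and 22214 against 23969, 24022 and 22374. Its log2 fold change was 0.14 ± 0.05, with an adjusted p of 0.0603 (DESeq2). Without tamoxifen replicate 4 the adjusted p was 0.000752, in a fit in which 14.9% of genes passed (DESeq2). Summed over the 21 partners, tags were 71310 to 73473 after oil and 71380 to 72252 after tamoxifen. With Runx1 left out the partner sums were 50580 to 51259 and 47411 to 49878, without overlap. The median over the 21 genes was -0.07, that over the members -0.03 and that over all genes -0.01. Of 25 genes that GATA and ETS factors are known to regulate, 1 was higher and 1 lower (DESeq2), and without tamoxifen replicate 4 it was 3 higher (Cd34, Itga2b and Hdc) and 3 lower (Ms4a2, Nfe2 and Epor). Cd34, a progenitor surface marker, rose with a log2 fold change of 0.83 ± 0.12 (adjusted p 3.44e-09), and Ms4a2, a mast cell receptor chain, fell by 0.35 on the log2 scale (adjusted p 0.0439). Kit, Gfi1b and Hhex had log2 fold changes of 0.01, -0.07 and -0.04 and did not pass.

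Marker genes of lineages in which GATA factors act were read as a check on the sorted cells. The oil and tamoxifen libraries did not overlap in the summed tags of the mast cell, blast and T cell lists. With Hdc left out the mast cell sums were 10145 to 10537 after oil and 10317 to 11366 after tamoxifen, and with Runx1 left out the blast sums were 9509 to 9948 and 9946 to 10384, both overlapping. The T cell sums overlapped with Cd3d left out or with Tcf7 left out. Summed over 24 of 24 erythroid genes, tags were 26503 to 29228 after oil and 24649 to 26941 after tamoxifen, and Car2 and Trim10 were lower (DESeq2). With Car1 left out the erythroid sums were 24763 to 26582 after oil and 22333 to 24300 after tamoxifen, without overlap. All 14 mast cell and basophil genes together gave 13223 to 14246 after oil and 14668 to 16512 after tamoxifen, with 3 genes higher (Fcer1a, Cma1 and Mcpt4) and 1 lower (Ms4a2). For 15 of 16 megakaryocyte genes the ranges were 11464 to 11983 and 11869 to 12471, and no gene passed. With Gp5 left out or with Vwf left out, the megakaryocyte sums after tamoxifen all lay above those after oil. For 12 of 12 blast genes the ranges were 30406 to 32162 and 32320 to 34406, with Cd34 and Mpo higher. T cell genes (15 of 16) gave 4825 to 5012 and 5054 to 5678, B cell genes (11 of 12) 5329 to 5570 and 5174 to 5634, and mature myeloid genes (17 of 18) 8360 to 8643 and 8243 to 8675. In these 3 lists Cd3d, Bcl11b and Cx3cr1 were higher and none lower. Without tamoxifen replicate 4, in a fit in which 14.9% of genes passed, Cd2, Hdc, Itga2b, Cebpa, Runx1 and Hbb-bt were higher as well (DESeq2). Cd79a, Blk, Ank1, Rhd and Epor were among the genes lower. Of the erythroid genes, 1 was higher in that fit (Hbb-bt) and 7 lower. In sorted but bulk cells, a smaller share of cells of a type and less open chromatin per cell cannot be told apart, and the part of these lists in the values of the members was not tested.

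Over the 6 libraries, Gata1, Tal1, Lmo2 and Fli1 had the most similar sums among the members, with pairwise values of Pearson's r from 0.64 to 0.94. The r of summed log2 tags was 0.93 between Gata1 and Tal1, 0.92 between Gata1 and Fli1 and 0.94 between Tal1 and Lmo2, against 0.43 between Gata1 and Gata2. These values share the libraries and their depth and are a description. Among 11412 other genes with at least 5 peaks, the most alike was Ninj2 for Gata1 (r = 1.00), Tmem25 for Gata2 (0.976), Cyb561d1 for Zfpm1 (0.978), Cenpc1 for Tal1 (0.997), Inafm1 for Lmo2 (0.995), Lrfn1 for Lyl1 (0.985), Frrs1 for Fli1 (0.998) and Gm15401 for Erg (0.969). For Gata1 there were 239 genes with an r over 0.95, so that a high r over 6 libraries singles out no gene.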

How the data were processed

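ATAC-seq tags were taken from the deposited table of 6 libraries (3 oil, 3 tamoxifen), grouped by their titles. The authors mapped reads to mm10 with Bowtie2, called peaks with HOMER, merged the lists of both groups and tallied tags over each merged peak. The deposited values are estimated counts in steps of 0.5, not normalized, with a limit of 3 tags per position. The versions are not given in the sources used here. Because peaks come from the lists of the libraries compared, a region open in neither group is absent from the table, and the limit per position caps the highest peaks.

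Tags were rounded and all 175929 peaks were fitted with DESeq2 1.42.0 (R 4.3.3, default size factors, Wald test, Benjamini-Hochberg over all peaks). Calls needed more than a 2-fold difference with an adjusted p under 0.05. Tags were also summed per gene over peaks within 100000 bp and fitted over 19781 genes. The 95% intervals are the estimate ± 1.96 standard errors. Alternatives comprised TMM, tags in peaks and library totals as size factors, edgeR 4.0.16, low-tag filters, leaving out each library, a replicate block, separate fits of distal and proximal peaks (3000 bp), cyclic loess (limma 3.58.1), normalization within 20 bins of GC content and limits of 20000 and 3000 bp. The fit of the replicate block on 4 libraries was repeated without the block, and the gene lists were counted without tamoxifen replicate 4 and summed without each gene in turn, after the data were seen. Both tests were tested on simulated data. On 0 of 21 chromosomes did a peak end beyond the GRCm38.p6 reference used for sequences, motifs and starts (RefSeq).

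Named peaks are, per gene, that nearest a TSS, the one over 3000 bp away with the most tags per kb, the one with the smallest unadjusted p and those within 1 kb of known enhancers, counted from the most upstream start. The Gata2 -38 kb, Zfpm1 -48.4 kb and 9.0 kb, and Lmo2 -157 bp and 14.3 kb peaks and the Gata2 stretches were chosen after their values were seen. The genes and lists were chosen with earlier results of these data known. Some items are not reported here.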

Additional observations from a re-analysis of the deposited data

How the results depend on the processing

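Of the 128 alternative values of summed tags per gene, 106 kept their direction and their side of the threshold, as did 587 of 608 for the 38 named peaks. The edgeR test gave 2 member peaks called, 2 higher and 2 lower at an adjusted p under 0.05, against 0, 0 and 0 by DESeq2; the cause was not tested. Leaving out 1 library at a time gave 0 to 3 called, 0 to 4 higher and 0 to 7 lower, with the highest counts without tamoxifen replicate 4, and a median log2 fold change of -0.0231 to 0.0052. A limit of 3000 bp gave a median of -0.0394. Over the same omissions the log2 fold change of the sums ranged from -0.2447 to -0.066 for Gata1, from -0.0563 to 0.0369 for Gata2, from -0.1012 to 0.0005 for Tal1, from -0.0298 to 0.0202 for Lyl1 and from -0.0202 to 0.0191 for Erg.

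Sums near 0 changed sign under other settings. Library totals gave 0.0168 for Gata2 and 0.0202 for Zfpm1, the 20000 bp limit 0.0016 for Gata2, 0.0181 for Fli1 and -0.0674 for Erg, and the 3000 bp limit 0.0139 for Zfpm1, 0.0532 for Fli1 and -0.001 for Erg. Replicates 1 and 4 carry the same numbers in both groups, but deviations of same-numbered libraries correlated at -0.0443 and 0.0506, so the numbers were not taken to pair them. With the replicate block on these 4 libraries, 0 member peaks were called, 0 higher and 0 lower, the median was -0.0254, and the sums were 0.0027 for Zfpm1, -0.0416 for Lyl1 and -0.0125 for Erg. The same libraries with no replicate block gave 0.0027, -0.0415 and -0.0125. Among named peaks the block gave -0.0129 for Zfpm1 -215 bp, -0.0198 for Lyl1 -25 bp, 0.0369 for Fli1 -48631 bp and 0.0121 for Fli1 -14994 bp, and library totals 0.0003 for Fli1 -48631 bp. Leaving out 1 library gave -0.0046 to 0.0996 for Zfpm1 -215 bp, -0.0054 to 0.0982 for Zfpm1 12204 bp, -0.2928 to 0.0185 for Tal1 -66 bp, -0.1454 to 0.0971 for Tal1 -3712 bp, -0.0369 to 0.0995 for Lmo2 12 bp, -0.07 to 0.2579 for Lmo2 -25333 bp, -0.0109 to 0.0332 for Lyl1 -25 bp, -0.0443 to 0.0414 for Fli1 -48631 bp and -0.2397 to 0.0227 for Fli1 -14994 bp.

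Standard errors were larger at the less open member peaks, and the part of depth in this was not tested. Outside the 36 most open member peaks the median standard error was 0.27. Log2 changes well above that size did not pass either, such as 0.7426 at Zfpm1 -4794 bp (DESeq2 adjusted p 0.0935). The smallest change detectable at a single peak was not worked out.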
